A study of Gallus gallus with 9 samples.

Results

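The step described here is the last one of small intestinal looping in the chick embryo, in which the gut passes from looping that is under way at embryonic day 12 (E12) to looping that is complete at embryonic day 16 (E16). The comparison took 6 of the 9 libraries of the series, the 3 E16 libraries and the 3 E12 libraries, chosen by their stage labels. The remaining 3 libraries, from day 8 (E8), entered the fit to share its estimate of the spread, and also the filter on low counts and the average level of each gene. Each library was made from poly(A)-selected RNA of dorsal mesentery pooled from 3 wild-type White Leghorn embryos, with the intestinal tube and the superior mesenteric artery dissected away. The libraries of a stage are therefore separate pools of embryos, and a pool averages over the embryos in it.

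The dorsal mesentery is a thin sheet of mesenchyme covered by mesothelium that carries vessels, nerves and lymphatics to the gut and anchors it to the body wall. The intestine grows faster than this sheet, is held back by it, and buckles into loops whose size depends on how thick and stiff the sheet is. The series' title places the stiffness in elastic fibres, which are built from elastin laid on fibrillin microfibrils and joined by lysyl oxidases. These data are bulk counts, so a lower level can mean fewer cells of a type or less RNA per cell, and the 2 cannot be told apart.

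The deposited table lists 24356 Ensembl gene identifiers without names. A RefSeq table of 25635 chicken genes holds none of these identifiers, so 0 were matched. Lists of elastic fibre, collagen, contractile, cell cycle and cell type marker genes had been drawn up by symbol and could not be applied, and the labelled tissue could not be checked against its markers. The step is therefore described by how many genes moved, how far, from what level and how well the libraries agreed, with 2 rises and 2 falls given by identifier.

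Reads counted in genes came to 23.3, 26.5 and 23.0 M (mega) in E16 replicates 1 to 3, and to 29.6, 30.6 and 30.1 M in E12 replicates 1 to 3. Reads outside every annotated feature made up 20.2%, 19.6% and 18.3% of all reads at E16, against 16.6%, 11.0% and 13.5% at E12, so the stages did not overlap in this measure (exact permutation test, two-sided, p = 0.10, the smallest that 3 against 3 allows). The gap between the stages was 1.71 percentage points between their nearest libraries, E16 replicate 3 and E12 replicate 1.

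Between E16 and E12, 8297 of 15506 tested genes changed, which is 53.5% (edgeR quasi-likelihood test, Benjamini-Hochberg adjusted p under 0.05). Rises and falls were nearly equal in number, with 4167 genes (26.9%) higher at E16 and 4130 (26.6%) lower at E16. This split depends on the scaling of the libraries, which here left a median log2 fold change of 0.00 over all tested genes. There were 4258 rises and 3974 falls with RLE factors, and 4366 and 3528 with total counts only. With upper-quartile factors there were 4508 rises and 3692 falls. Among the called genes, the median rise was larger than the median fall, a difference that is mixed with gene level, as given below. The median log2 fold change of the genes that rose was 1.02, and that of the genes that fell was -0.81, where a log2 fold change of 1 is a doubling.

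The balance moved toward rises as the minimum change was raised to 4-fold. At 1.5-fold or more, 3444 genes rose and 3030 fell. At 2-fold or more, which 22.7% of tested genes passed, 2148 rose (13.9%) and 1377 fell (8.88%), or 1.56 rises for each fall. These counts were 1097 and 917 among genes of average log2 CPM of at least 3, and 858 and 836 with the percentage of reads outside annotation as a covariate. At 4-fold or more, 552 rose and 197 fell, a ratio of 2.80. At 8-fold or more, 132 rose and 51 fell, a ratio of 2.59, and these 183 genes were 1.18% of those tested. Of these, 29 rises and 17 falls had an average log2 CPM of at least 3. At 16-fold or more, 33 rose and 14 fell, a ratio of 2.36, and 7 rises and 7 falls met that level. This average takes in the E8 libraries. A gene high only at E16 must therefore be higher to meet it than a gene high at both E8 and E12. Of the called genes, 42.5% reached 2-fold, 9.03% reached 4-fold and 2.21% reached 8-fold. When the test asked for a change beyond 2-fold, in place of any change, 791 genes rose and 416 fell (edgeR glmTreat, a test added after the data were seen).

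**Figure D1:**
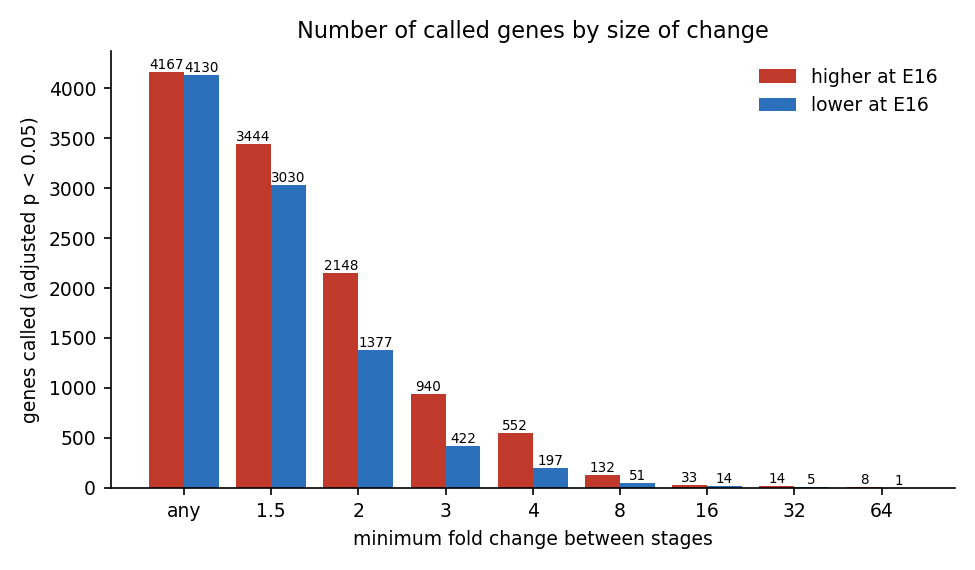
Number of genes called at an adjusted p under 0.05 (vertical axis) by minimum fold change between the stages (horizontal axis), with genes higher at E16 in red and genes lower at E16 in blue. The bars are near equal for any change, at 4167 and 4130, and stand at 552 and 197 for changes of 4-fold or more.

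The direction of change varied with the average level of a gene. Among called genes with an average level under 0 on the log2 CPM scale (CPM, the count scaled to the size of its library, here averaged over all 9 libraries), 345 rose and 130 fell, so that 72.6% were rises. The share of rises was 66.0% at levels of 0 to 2, 59.3% at 2 to 4 and 50.2% at 4 to 6. In the 2 most abundant classes it was below an even split, at 33.0% for levels of 6 to 8 and 32.5% for levels of 8 and over, where 119 genes rose and 247 fell. Over called and uncalled genes together, the median log2 fold change ran from 0.34 in the lowest class to -0.23 in the highest. The median absolute log2 fold change of called genes was 1.97 in the lowest class and 0.69 in the highest. The larger median of the rises is therefore mixed with their lower level. The level itself includes the values compared and those at E8, so it is not independent of direction. At 2-fold or more, the rises had median CPM of 12.8 at E16, 4.08 at E12 and 5.68 at E8. The falls had 10.2, 26.7 and 25.1. By these medians E8 lay nearer to E12, which moves rises to lower classes and falls to higher ones. How much of the order by level comes from this was not tested.

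This order by abundance was not kept in every fit. With the percentage of reads outside annotation as a covariate in the fit, 2604 genes were called, and the share of rises among them no longer fell steadily with abundance. From the lowest class to the highest it was 46.2%, 56.5%, 53.9%, 45.8%, 34.3% and 58.4%, on 78 called genes in the lowest class and 185 in the highest. The 2 end classes thus lay on the other side of an even split, while the class of 6 to 8 stayed at about its share of 33.0%. Within the 6 fits that left out 1 E16 or E12 library each, without the covariate, the shares stayed at 70.3% to 76.6% in the lowest class and 28.3% to 32.6% in the highest. Because the stages did not overlap in the covariate, a change with stage cannot be told apart from one with this share. The share ran from 19.75% to 20.38% in the E8 libraries and from 18.3% to 20.2% at E16, but from 11.0% to 16.6% at E12. The fitted effect of the covariate within a stage therefore rests mostly on the E12 libraries and is extended over the gap between the stages.

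**Figure D2:**
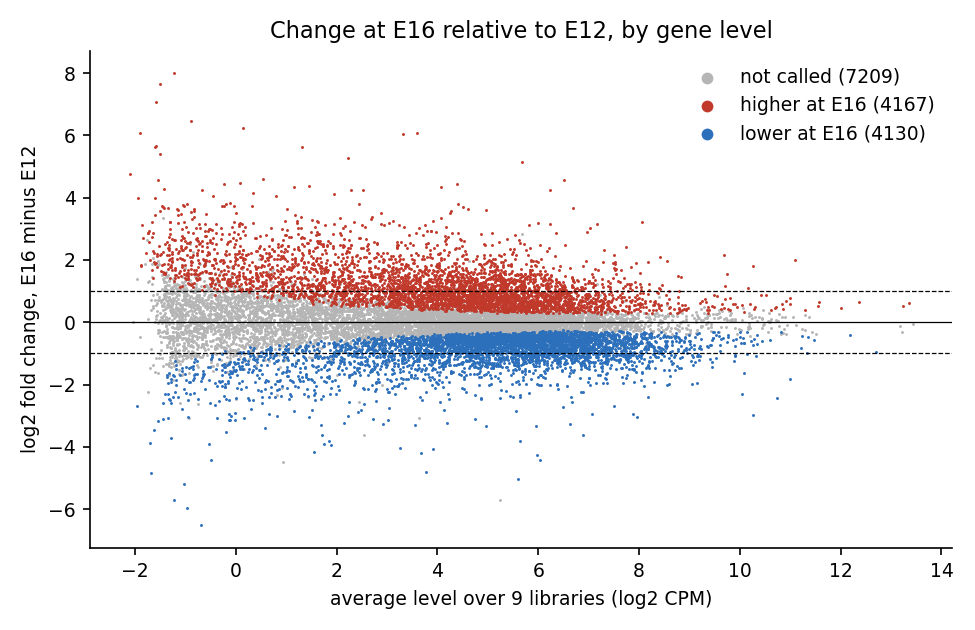
Log2 fold change, E16 minus E12 (vertical axis), against average log2 CPM over the 9 libraries (horizontal axis) for the 15506 tested genes, with rises in red, falls in blue and genes not called in grey; dashed lines mark 2-fold. Rises outnumber falls on the left, at low levels, and falls outnumber rises on the right, above a level of 6.

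The called genes, 53.5% of those tested, held most of the gene counts. The 7209 tested genes that were not called held means of 41.5% at E16 and 39.8% at E12. The 4167 genes that rose held 33.01%, 33.62% and 30.56% of all gene counts in E16 replicates 1 to 3, against 19.99%, 16.47% and 16.36% in E12 replicates 1 to 3. The 4130 genes that fell held 25.7%, 25.9% and 26.5% at E16, against 40.5%, 43.2% and 44.0% at E12. These shares describe genes picked by the same contrast and carry no test. Most of this shift came from changes of less than 2-fold: the genes that rose by 2-fold or more held 9.12% ± 0.95 of counts at E16 and 3.05% ± 0.59 at E12, and those that fell by 2-fold or more held 5.09% ± 0.24 at E16 and 12.2% ± 0.72 at E12 (SD, n = 3 each).

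The concentration of the RNA in a few genes was measured as well. In the E16 libraries 716, 744 and 652 genes made up the more abundant 50% of counts, against 828, 634 and 667 in the E12 libraries (exact permutation test, two-sided, p = 0.90). The 10 most abundant genes of each library held 8.83%, 9.04% and 8.63% of counts at E16, against 7.18%, 8.32% and 8.35% at E12. The stages did not overlap there (exact permutation test, two-sided, p = 0.10, the smallest possible, 0.217 after Benjamini-Hochberg adjustment over 13 library measures). For the 100 most abundant genes the stages overlapped, with means of 25.3% at E16 and 23.6% at E12 (exact permutation test, p = 0.20). The 10 genes with the largest difference in CPM between the stage means comprised 4 that were higher at E16, by 2565 to 4882 CPM, and 6 that were lower, with differences of -4462 to -1817 CPM. Of these 10 genes, 9 were called at an adjusted p under 0.05. All 10 were picked by the contrast itself, so the sizes of their differences carry no test.

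Genes at least 8-fold apart were mostly of low abundance. The 132 that rose had a median level of 3.17, 3.69 and 2.38 CPM in the E16 libraries, against 0.285, 0.269 and 0.218 CPM in the E12 libraries. Among them 42 reached a mean of 10 CPM at E16 and 10 reached 100 CPM, and the most abundant stood at 673 CPM. The 51 that fell had a median of 0.217, 0.266 and 0.227 CPM in the E16 libraries, against 3.25, 2.80 and 3.42 CPM in the E12 libraries, and 4 of them had stood at 100 CPM or more at E12. The values of the stages did not overlap in any of the 183 genes, where 58.5% of all tested genes also did not overlap.

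The fitted fold changes at the extreme rest on very few reads. Of the 19 genes called at 32-fold or more, 7 had no read in any library of the lower stage and 6 had 1 to 3 reads over its 3 libraries, so their size depends on the small count that edgeR adds. Only 6 had more than 3 reads there. Identifiers of called genes are given below only for genes with an average log2 CPM of at least 3.

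ENSGALG00000017029 had the largest rise among the 2753 rising genes that met that level and whose stages did not overlap. It stood at 28.1, 47.7 and 31.0 CPM in the E16 libraries, against 0.569, 0.691 and 0.327 CPM in the E12 libraries. Its reads numbered 647, 1254 and 682 at E16 and 17, 18 and 9 at E12. All 3 E16 libraries were thus far above all 3 E12 libraries, and the log2 fold change was 6.06 (SE 0.33, edgeR adjusted p of 4.7e-07), or 66.9-fold. The mean of this gene was 0.0826 CPM at E8, so only its E16 libraries carried it past the level for naming.

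ENSGALG00000002637 followed at 37.9, 17.5 and 33.7 CPM in the E16 libraries, against 0.234, 0.768 and 0.364 CPM in the E12 libraries. It met the level for naming through its E16 libraries. The log2 fold change was 6.04 (SE 0.41, edgeR adjusted p of 1.5e-06). Its rank among the tested genes by mean level was 6431 at E16, against 14471 at E12, where rank 1 is the most abundant.

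The largest fall among 3203 eligible falling genes was that of ENSGALG00000054675, which had 0.739, 0.723 and 0.954 CPM in the E16 libraries, against 33.5, 23.8 and 21.9 CPM in the E12 libraries. The E16 libraries held 17, 19 and 21 reads of it and the E12 libraries 1001, 619 and 602. With a mean of 118 CPM at E8, it passed the level for naming through its E8 and E12 libraries. Its transcript was low at E16 but present in every library, and the log2 fold change was -5.04 (SE 0.32, edgeR adjusted p of 1.0e-06).

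ENSGALG00000001449 had 0.217, 0.609 and 0.454 CPM in the E16 libraries, against 10.3, 9.60 and 16.7 CPM in the E12 libraries. Its E16 libraries held only 5, 16 and 10 reads, so the fall is less precise than its E12 level. The log2 fold change was -4.80 (SE 0.36, edgeR adjusted p of 2.3e-06). With a mean of 27.8 CPM at E8, this gene also passed the level for naming through its E8 and E12 libraries.

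**Figure D3:**
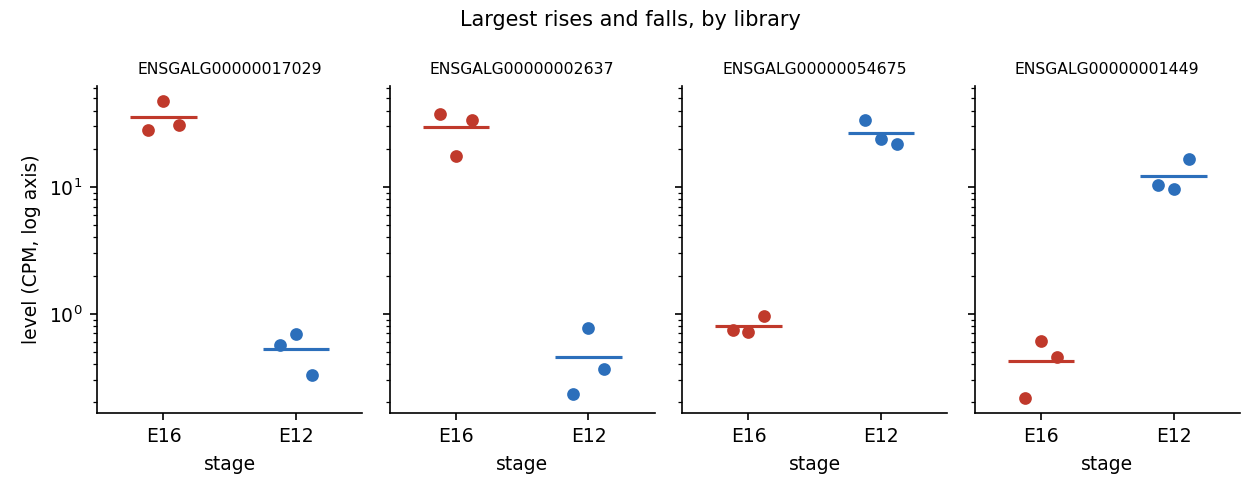
Level in CPM (vertical log axis) of the 2 largest rises and 2 largest falls among called genes of average log2 CPM of at least 3 whose stages did not overlap, in each E16 library (red points) and each E12 library (blue points), with stage means as lines. The stages lie far apart in each gene, with E16 means of 35.6, 29.7, 0.805 and 0.427 CPM. That they do not overlap was a condition of the choice. Points of a stage also differ, as in ENSGALG00000002637, with 0.234 to 0.768 CPM in the E12 libraries.

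Few genes were switched on or off outright. A gene was called on where every library of a stage had at least 1 CPM, which is 22.0 to 29.9 reads, and off where every library had less than 0.1 CPM, which is fewer than 3 reads. By this rule, applied to all 24356 genes, 2 genes were switched on at E16 and 0 were switched off. The first of them had 3.61, 2.78 and 2.73 CPM in the E16 libraries, against 0.067, 0 and 0.0364 CPM in the E12 libraries. The second had 1.48, 1.56 and 1.32 CPM at E16, against 0, 0 and 0.0364 CPM at E12. Neither exceeded 4 CPM in any library. Without E12 replicate 1 the number switched on was 6.

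Relaxing the rule brought in more genes, and more that were on at E16 than that were off at E16. With off set at less than 0.5 CPM in every library, 50 genes were on at E16 and 13 were off. Rises also outnumbered falls among all called genes of low level that changed by 2-fold or more. There were 342 rises and 129 falls at average log2 CPM under 0, and 468 and 213 at 0 to 2. Whether the 50 and 13 differ from this general lean was not tested. The 50 genes had a median level of 2.0, 2.1 and 1.5 CPM in the E16 libraries, against 0.25, 0.19 and 0.18 CPM in the E12 libraries, and 1 of them reached a mean of 5 CPM. The 13 genes had a median of 0.35, 0.30 and 0.32 CPM in the E16 libraries, against 2.1, 2.0 and 2.4 CPM in the E12 libraries. Each of these 63 genes had at least 1 read in the stage where it was off. No gene of either set averaged 10 CPM where it was on.

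**Figure D4:**
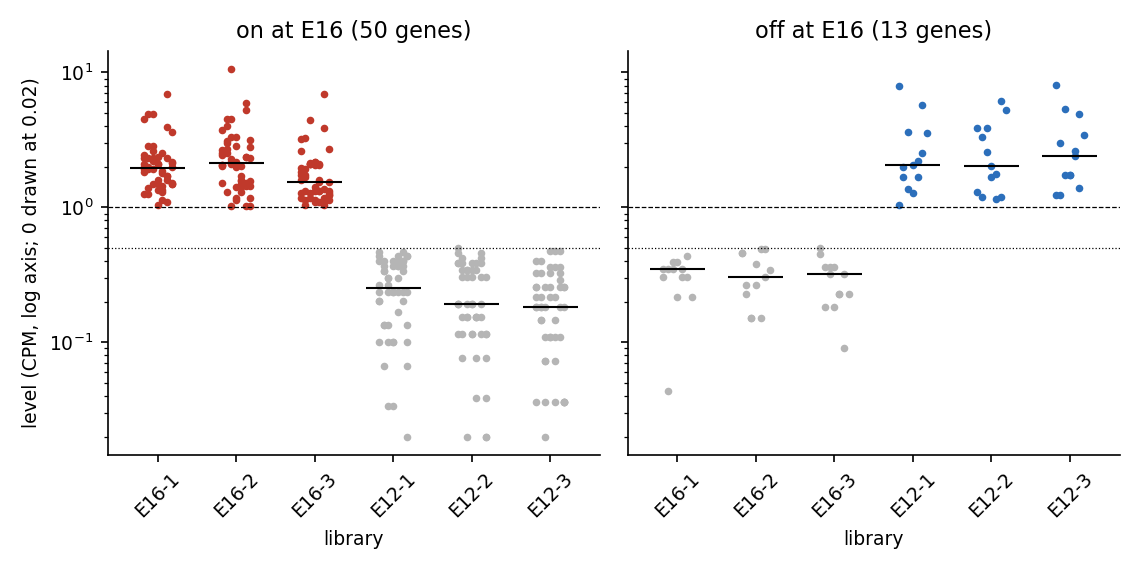
Level in CPM (vertical log axis) in each library of the 50 genes on at E16 (left) and the 13 genes off at E16 (right), where on is at least 1 CPM in all 3 libraries (dashed line) and off is less than 0.5 CPM in all 3 (dotted line). Black lines are medians, at 1.5 to 2.1 CPM in the E16 libraries on the left and at 0.30 to 0.35 CPM in the E16 libraries on the right.

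The spread among the 3 libraries was larger at E12, where replicate 1 stood apart from the others. Pairs of E16 libraries were at least 2-fold apart in 3.52% to 4.45% of tested genes, and pairs of E12 libraries in 5.08% to 8.36%. By the median absolute difference in log2 CPM, E12 replicates 2 and 3 were 0.21 apart, within the 0.19 to 0.27 of the E16 pairs, while E12 replicate 1 was 0.36 and 0.34 from them. The median SD of log2 CPM over 3 libraries was 0.186 at E16 and 0.260 at E12, and 66.2% of tested genes had the larger SD at E12. The common biological coefficient of variation, fitted to each stage alone with edgeR, was 0.147 at E16 and 0.215 at E12. Across genes, which are no replicates, the log2 CPM of 2 libraries of a stage had Pearson correlations of 0.985 to 0.989 at E16 and 0.977 to 0.986 at E12.

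Single libraries of different stages differed more than this. In the 9 pairs of an E16 with an E12 library, 19.4% to 32.8% of genes were at least 2-fold apart, and in each of the 9 pairs more of these genes were higher at E16 than lower. The 3 pairs with E12 replicate 1 lay at 19.4% to 21.3%, below the 26.4% to 32.8% of the other 6. Their median absolute differences in log2 CPM were 0.48 to 0.49, against 0.60 to 0.69 in the other 6. E12 replicate 1 was the E12 library nearest to the E16 level in 66.0% of the genes that rose and 65.7% of those that fell. E16 replicate 3 was the E16 library nearest to the E12 level in 60.8% of the genes that rose and 43.6% of those that fell. Among the genes that fell, E16 replicate 2 was nearest almost as often, in 40.1%. E16 replicate 3, at 18.3%, and E12 replicate 1, at 16.6%, also had the shares of reads outside annotated features nearest to the other stage. The part of this share in the result was not tested beyond the covariate given above.

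**Figure D5:**
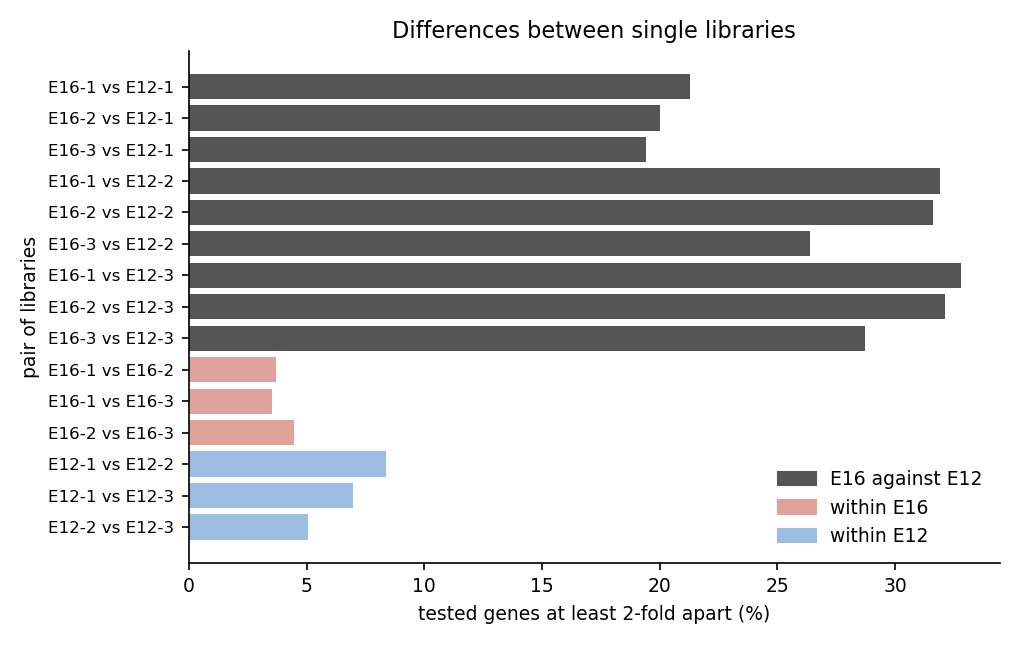
Share of tested genes at least 2-fold apart (horizontal axis, percent) for every pair of libraries: E16 against E12 in dark grey, within E16 in red and within E12 in blue. Pairs across stages lie between 19.4% and 32.8%, pairs within E16 between 3.52% and 4.45%, and pairs within E12 between 5.08% and 8.36%.

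Most called genes were separated in every library. The E16 and E12 values did not overlap in 94.2% of the called genes, against 58.5% of all tested genes, and 484 called genes did overlap. In 6944 called genes (83.7%), the difference between the stage means was larger than the range within either stage. In 1226 called genes all 9 pairs of libraries differed by at least 2-fold in the same direction, 798 of them higher at E16 and 428 lower. For the 6944 and the 1226, the share over all tested genes was not taken. The called genes were picked by a test on these same libraries, so these shares describe them and carry no test. Among genes that were not called, 1256 (17.4%) still had stages that did not overlap.

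Calls with larger changes were kept more often when a library was left out. All 6 fits that left out 1 E16 or E12 library called 3054 of the 4167 rises (73.3%) and 3087 of the 4130 falls (74.7%), in the same direction. Of the changes of 2-fold or more they kept 86.9% of rises and 90.6% of falls, and of those of 8-fold or more 128 of 132 rises and 48 of 51 falls. The fit with the covariate kept 23.4% of rises and 30.8% of falls, 33.1% and 55.0% at 2-fold or more, and 68 of 132 rises and 37 of 51 falls at 8-fold or more. Of the 2604 genes that it called, 2245 were among the 8297, and 0 of these had changed direction. By the fit without the covariate, the median absolute log2 fold change was 1.23 for the 2245 kept calls, against 0.90 for all 8297. A call can be lost through a smaller change or a less precise one. The 4 genes given by identifier above, picked for their large changes, all kept their call. Their log2 fold changes were 6.21, 7.37, -5.6 and -4.67 with the covariate. Without it they were 6.06, 6.04, -5.04 and -4.80. Their edgeR adjusted p was 0.00039 to 0.0017 with the covariate, against 4.7e-07 to 2.3e-06 without it. These genes do not describe the lost calls. Whether the lost calls had smaller or less precise changes in the fit with the covariate was not tested.

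Replicates also marked the limit of single large values. The largest fitted change without a call was that of ENSGALG00000027269, chosen after its values were seen. It had 0.0435, 1.22 and 0.636 CPM in the E16 libraries, against 0.335, 102 and 0.218 CPM in the E12 libraries. E12 replicate 2 held 2660 reads of it, and the other E12 libraries held 10 and 6. The log2 fold change of -5.70 had an SE of 3.60 and an edgeR adjusted p of 0.23. In all, 318 genes had a fitted change of 2-fold or more without passing the test, and 94.0% of them had an average log2 CPM under 2.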

How the data were processed

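The authors deposited 1 table of raw counts, with a row for each Ensembl gene. The submitters' processing notes name FastQC 0.11.9, cutadapt 3.1, Trim Galore, HISAT2 2.2.1, HTSeq 0.13.5, DESeq2 and the build GRCg6a. The strand setting and the annotation release are not given in the sources used here, so counts of overlapping or near-identical genes are uncertain. The 5 HTSeq rows for reads in no gene stayed out of library sizes and tests; they held 31.6% to 36.6% of reads.

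filterByExpr kept 15506 genes. Stage means were fitted to all 9 libraries with TMM factors and tested with edgeR 4.0.16 (quasi-likelihood, robust, two-sided) in R 4.3.3. The SE is the absolute log2 fold change over the square root of F. CPM uses TMM-scaled sizes, and log2 CPM a prior count of 2. DESeq2 1.42.0 and limma 3.58.1 (voom) were alternatives. The rule for named genes took the largest rises and falls among called genes whose stages did not overlap and whose average log2 CPM reached 3, and, without symbols, 2 of each. Members, lists and the covariate were chosen with earlier results of these data known.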

Additional observations from a re-analysis of the deposited data

Results flagged for a closer look

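The gene comparison leaves out the 5 HTSeq categories of unassigned reads, all of which held reads in each library. As means over the 6 E16 and E12 libraries, reads outside annotation were 16.5% of the total and unaligned reads 7.70%. Reads of low alignment quality were 5.21%, those shared by overlapping genes 2.37%, and those with several alignments 2.22%. Unaligned reads made up 7.01% ± 0.35 at E16 and 8.39% ± 0.98 at E12, and reads with several alignments 1.92% ± 0.06 at E16 and 2.51% ± 0.26 at E12 (SD, n = 3 each). In neither did the stages overlap (exact permutation test, two-sided, p = 0.10 each, the smallest possible, and 0.217 after Benjamini-Hochberg adjustment over 13 library measures).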

How the results depend on the processing

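Over 19 alternatives, the number of called genes stayed within 1.5 times the reported 8297 except with the covariate and with the test against 2-fold. With the percentage of reads outside annotation as covariate, 2604 genes were called, 1192 higher and 1412 lower; at 2-fold or more 1694 were called, 858 higher and 836 lower; and the share of rises was 46.2% in the lowest and 58.4% in the highest class of abundance, against 72.6% and 32.5%. The cause was not tested, and the fitted effect of the covariate rests mostly on the E12 libraries. Tested against 2-fold, 1207 were called, 791 higher and 416 lower. With only genes of average log2 CPM of at least 3, 2014 reached 2-fold, 1097 higher and 917 lower. Leaving out each E16 or E12 library gave 6794 to 9199 called genes, 3441 to 4714 higher and 3353 to 4485 lower, and at 2-fold or more 3082 to 4297, 1813 to 2670 higher and 1251 to 1627 lower; the highest of each came without E12 replicate 1. Genes switched on numbered 2 to 6 and genes switched off 0 in these fits. With on at 0.5 CPM, 9 were on and 1 off; with off under 0.5 CPM, 50 and 13. With total counts only, 55.3% of called genes were higher, against 50.2%. The replicate block gave 8100 genes. Between E16 and E12 libraries of equal replicate number, deviations from the stage means correlated at 0.16, -0.12 and 0.14. Between libraries of unequal number the correlations ran from -0.30 to 0.21. These values do not show whether the libraries were paired. The 4 genes given by identifier, picked as the largest changes, kept their direction and call in all 19. The cut at an adjusted p under 0.01 and the limit to average log2 CPM of at least 3 reused the reported fit. For these genes the outcome of both was fixed in advance. Removal of haemoglobin and mitochondrial genes, and counts of the gene lists, were not run because no symbols were matched.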

Other observations

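The genes that were on or off by the relaxed rule (1 CPM and 0.5 CPM) were also looked up in the E8 libraries. The rule fixed their E12 level, low in the first set and high in the second, so the difference between the sets at E8 is a description. Of the 50 genes on at E16, 27 were under 0.5 CPM in all 3 E8 libraries and 4 were at 1 CPM or more in all 3. Their median E8 mean was 0.34 CPM. Of the 13 genes off at E16, 11 were at 1 CPM or more in all 3 E8 libraries and 1 was under 0.5 CPM in all 3, with a median E8 mean of 2.6 CPM.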
